A study of Mus musculus with 11 samples.

Results

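Toll-like receptors are membrane proteins through which macrophages recognise conserved microbial molecules. The 10 genes described here, Tlr1 to Tlr9 and Tlr13, are the mouse receptor genes chosen by name for this account, from 18755 genes with a measured row. Each was measured by 1 probe set that the array's annotation assigns to that gene alone, so the rule of taking the brightest row per gene left no choice among rows.

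The cells were bone marrow-derived macrophages of C57Bl/6 wild-type mice, cultured for 1 week with macrophage colony-stimulating factor at 5 ng/ml and used 24 hours after replating. Cultures were left untreated (4 arrays), given 100 ng/ml lipopolysaccharide (LPS, from the bacterial outer membrane) for 1 hour (3 arrays), or given the same LPS together with 10 µM prostaglandin E (PGE) for 1 hour (4 arrays). All groups share strain, growth factor and culture; PGE without LPS was not among the treatments, and which prostaglandin E it was is not stated in the labels. The authors made 12 arrays and left out 1 LPS array for quality. Nothing in the labels says whether arrays of a group came from separate mice, so p-values measure only the spread between these arrays, which may be technical.

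All 10 receptors share an extracellular leucine-rich repeat domain that binds the ligand and an intracellular TIR domain that recruits adaptors. Tlr1, Tlr2, Tlr4, Tlr5 and Tlr6 act at the cell surface, and Tlr3, Tlr7, Tlr8, Tlr9 and Tlr13 in endosomes, where they meet nucleic acids. Tlr4, with its co-receptors, is the receptor for LPS itself, and Tlr2 pairs with Tlr1 or Tlr6 to bind bacterial lipopeptides. Except for Tlr3, they signal through the adaptor Myd88 to NF-kB, and Tlr3 and Tlr4 also use the adaptor Ticam1 (TRIF) to induce interferon-beta.

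Promoter sequences are shown because the 3 genes of the Tlr2 heterodimers all rose after LPS and then parted under PGE, and because a gene with a similar match, Tlr3, gave no call. The windows run from 250 bases before to 50 bases after a RefSeq start (GRCm38.p6), are printed 5′ to 3′ along the gene, and carry every match to the 6 motifs searched in capitals. In Tlr2 and Tlr3 the capitals mark the NF-kB consensus, in window 1 of Tlr1 the PU.1 core, in window 1 of Tlr6 the interferon-stimulated response element, and in window 2 of Tlr6 the TATA box letters and the short cAMP response element motif.
Tlr2, chr3:83841559-83841858, - strand: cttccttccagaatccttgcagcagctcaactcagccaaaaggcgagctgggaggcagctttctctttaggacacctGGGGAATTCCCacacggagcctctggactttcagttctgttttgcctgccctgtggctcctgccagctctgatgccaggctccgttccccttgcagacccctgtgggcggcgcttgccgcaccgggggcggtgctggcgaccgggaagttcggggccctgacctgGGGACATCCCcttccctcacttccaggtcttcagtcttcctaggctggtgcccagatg
Tlr3, chr8:45410331-45410630, - strand: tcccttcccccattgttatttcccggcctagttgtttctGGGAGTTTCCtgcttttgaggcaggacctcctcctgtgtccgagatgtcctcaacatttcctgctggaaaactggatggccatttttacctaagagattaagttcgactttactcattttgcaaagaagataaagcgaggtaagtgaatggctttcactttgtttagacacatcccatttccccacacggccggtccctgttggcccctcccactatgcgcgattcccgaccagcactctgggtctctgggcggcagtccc
Tlr1, window 1, chr5:64933509-64933808, - strand: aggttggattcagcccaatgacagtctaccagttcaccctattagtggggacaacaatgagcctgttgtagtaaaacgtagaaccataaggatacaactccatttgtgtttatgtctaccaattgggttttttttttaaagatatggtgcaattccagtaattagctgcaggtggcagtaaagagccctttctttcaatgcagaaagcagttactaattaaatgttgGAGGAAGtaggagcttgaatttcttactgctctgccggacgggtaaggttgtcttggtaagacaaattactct
Tlr6, window 1, chr5:64959117-64959416, - strand: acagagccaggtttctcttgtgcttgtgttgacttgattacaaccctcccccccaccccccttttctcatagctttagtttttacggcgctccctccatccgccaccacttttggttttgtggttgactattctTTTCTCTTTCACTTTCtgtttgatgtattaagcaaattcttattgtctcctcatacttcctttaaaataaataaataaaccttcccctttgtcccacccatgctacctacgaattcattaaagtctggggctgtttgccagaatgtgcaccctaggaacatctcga
Tlr6, window 2, chr5:64959999-64960298, - strand: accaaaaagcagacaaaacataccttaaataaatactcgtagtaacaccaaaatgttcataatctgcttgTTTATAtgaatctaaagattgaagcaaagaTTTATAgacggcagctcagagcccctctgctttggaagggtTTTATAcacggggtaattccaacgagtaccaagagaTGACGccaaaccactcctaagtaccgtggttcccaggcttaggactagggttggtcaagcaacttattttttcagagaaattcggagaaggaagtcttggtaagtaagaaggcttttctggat

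The Tlr2 window held the NF-kB consensus in 2 places. The run beginning 173 bases upstream of the start contains overlapping matches, and the other match begins 8 bases upstream. Tlr3 held 1 match, 211 bases upstream, and no other member of the 8 with a window did. That is 2 of 8 members, against 9.55% of 27025 genes and 8.46% of 32851 windows of this length. The motif TGACG, the first part of a cAMP response element, was found in Tlr6 and Tlr13 (2 of 8, against 23% of genes). GAGGAAG, the core recognised by the myeloid factor PU.1, was found in Tlr1, Tlr9 and Tlr13 (3 of 8, against 15.4%). The AP-1 motif TGANTCA was found in Tlr9 alone (8.97% of genes), the interferon-stimulated response element in Tlr6 alone (3.99%) and TATAAA in Tlr6 and Tlr8 (15.7%). Both strands were searched; a match is a run of letters and not a measured binding site. The second Tlr1 window held none of the 6 motifs. Tlr4 and Tlr7 had no window in the table used.

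Values below are deposited log2 levels, on which 1 unit is a doubling, and fold changes are limma estimates ± SE with Benjamini-Hochberg adjusted p-values over all 18755 genes; a gene passed under 0.05. Across genes, which are not independent replicates, the correlation was 0.996 to 0.998 within a group and 0.980 to 0.993 between groups. All 9 macrophage markers lay above the array median in untreated cells, as did 1 of 6 B cell markers, 2 of 6 plasmacytoid dendritic cell markers, 2 of 7 conventional dendritic cell markers, 1 of 7 neutrophil markers and none of the T and NK, mast cell or stromal markers. The mean marker level on an array ran from 11.41 to 11.66 for macrophages and from 6.52 to 6.81 for plasmacytoid dendritic cells, a type known for Tlr7 and Tlr9. With LPS plus PGE against untreated, 3 of these 6 plasmacytoid markers rose and 1 fell (13.8% and 17.9% of all genes). In that comparison 1 marker each rose for macrophages, conventional dendritic cells, T and NK cells and stroma, and 1 T and NK marker fell. No neutrophil, B cell or mast cell marker passed there. After LPS 1 marker each rose for macrophages, neutrophils and conventional dendritic cells, and 1 stromal marker fell (6.55% and 6.69% of all genes). Between the treatments 2 B cell, 2 stromal and 1 each of the macrophage, plasmacytoid and T and NK markers rose (11.9% of all genes). Falls there were 1 marker each for neutrophils, plasmacytoid and conventional dendritic cells, and T and NK cells (12.9%). The macrophage marker was Cd14 each time. The part of these markers in the results below was not tested. In bulk samples, fewer cells of a type and less RNA per cell cannot be told apart.

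**Figure D1:**
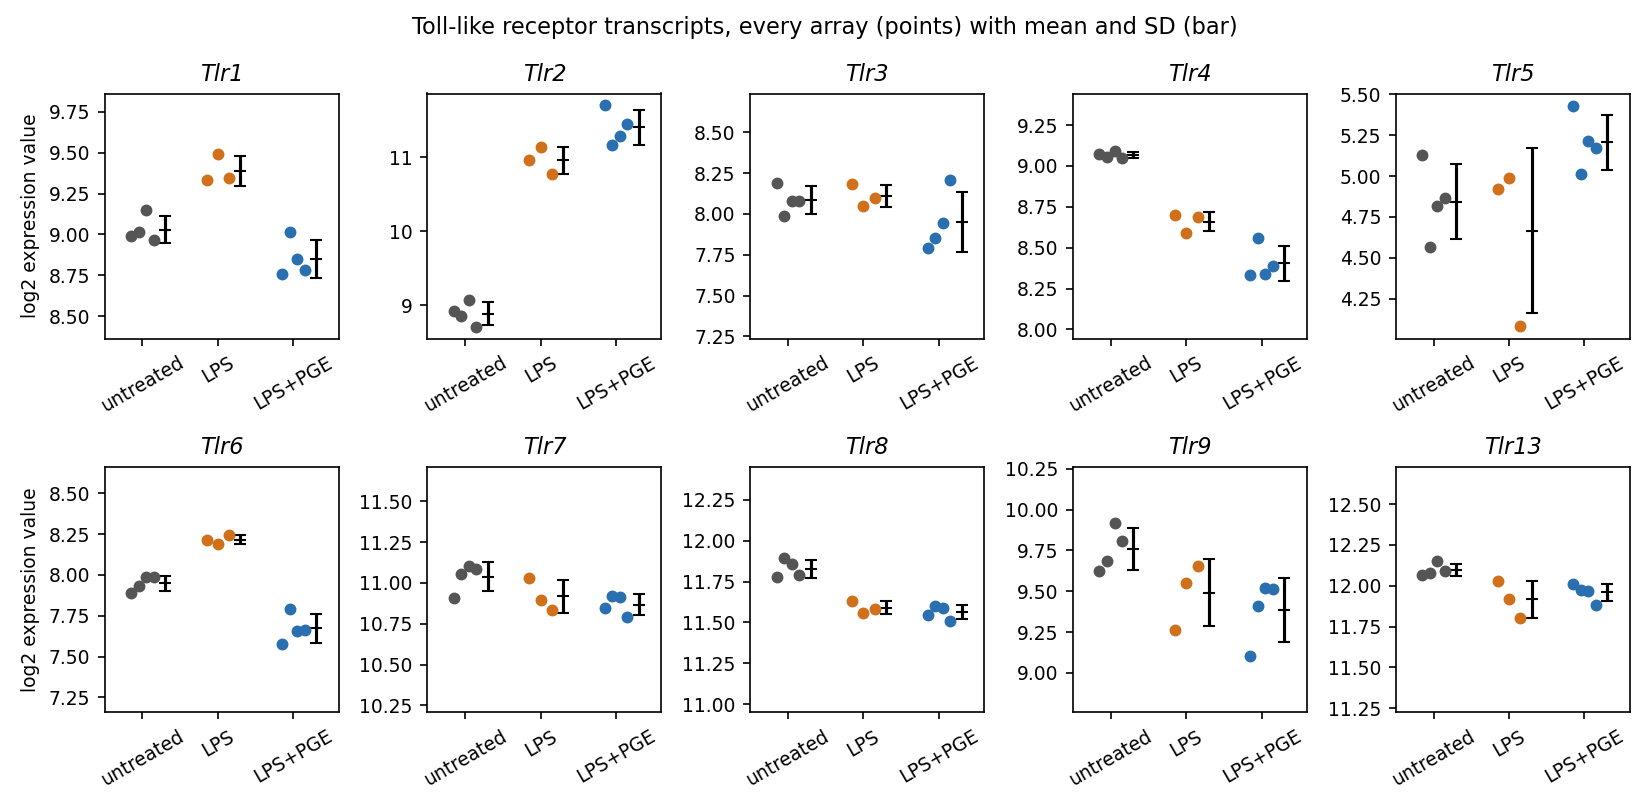
Deposited log2 expression values (vertical axis) of the 10 Toll-like receptor genes in 4 untreated, 3 LPS and 4 LPS+PGE arrays; each point is an array, the bar is the group mean with its SD, and the vertical axes differ between panels. Tlr2 lies higher in every treated array, Tlr1 and Tlr6 are highest in the LPS arrays, and Tlr4 steps down from untreated to LPS to LPS+PGE.

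An hour of LPS raised the transcripts of Tlr2 and both of its partners and lowered those of Tlr4 and Tlr8. Of the 10 receptors 5 passed, against 13.2% of all genes: 3 rose (background 6.55%) and 2 fell (background 6.69%). The arrays of the groups did not overlap for 6 receptors, against 23.1% of all genes: 3 lay higher with LPS (background 10.5%) and 3 lower (background 12.6%). The median change was -0.15 over the 10 receptors and -0.01 over all genes. The count of receptors that passed ran from 4 to 6 of 10 under the 21 alternatives tried; the count without overlap was not recomputed.

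Tlr2, the shared subunit of the lipopeptide receptors, stood at 8.92, 8.85, 9.07 and 8.70 in untreated arrays, at 10.96, 11.14 and 10.77 with LPS, and at 11.71, 11.16, 11.29 and 11.45 with LPS plus PGE. The 3 groups are in that order with no overlap, and the step from untreated is many times the spread within a group. The LPS change was 2.07 ± 0.13, a 4.21-fold rise (limma adjusted p = 3.31e-07). Against untreated cells, LPS plus PGE gave 2.52 ± 0.12, or 5.73-fold (limma adjusted p = 1.66e-08). Both rises passed under all 21 alternatives, with ranges of 1.98 to 2.17 and 2.42 to 2.64.

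The further step of Tlr2 from LPS to LPS plus PGE was small and near the threshold. It measured 0.45 ± 0.13, or 1.36-fold (95% interval 0.16 to 0.73, limma adjusted p = 0.0306), and it passed in 15 of 21 alternatives. The adjusted p was 0.0692 without LPS replicate 1, 0.117 without LPS replicate 3, 0.0706 without LPS plus PGE replicate 1 and 0.0624 without LPS plus PGE replicate 4. It was also 0.0636 with array weights and 0.0536 with all probe sets tested.

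Tlr1, which joins Tlr2 to bind triacylated lipopeptides, measured 8.99, 9.01, 9.15 and 8.96 in untreated arrays and 9.33, 9.49 and 9.34 with LPS. With LPS plus PGE it was back at 8.76, 9.01, 8.85 and 8.78. The LPS arrays lie above all others, and the untreated and LPS plus PGE arrays overlap. LPS raised Tlr1 by 0.36 ± 0.08, or 1.28-fold (limma adjusted p = 0.00892).

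Tlr6, the partner for diacylated lipopeptides, gave 7.89, 7.93, 7.99 and 7.99 in untreated arrays, 8.22, 8.19 and 8.24 with LPS, and 7.58, 7.79, 7.66 and 7.66 with LPS plus PGE. The 3 groups do not overlap, with LPS highest and LPS plus PGE lowest. LPS raised Tlr6 by 0.27 ± 0.06, or 1.20-fold (limma adjusted p = 0.0134). The LPS rises of Tlr1 and Tlr6 passed under all 21 alternatives.

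With PGE added to LPS, both partners fell while Tlr2 rose. Tlr1 fell by 0.54 on the log2 scale (± 0.08, a 1.45-fold fall, limma adjusted p = 0.000916) and Tlr6 also fell by 0.54 (± 0.06, a 1.46-fold fall, limma adjusted p = 0.000184). Both falls passed under all 21 alternatives, at -0.59 to -0.38 for Tlr1 and -0.58 to -0.38 for Tlr6. This comparison and that of LPS with untreated share the 3 LPS arrays, so a rise in the one and a fall in the other do not support each other.

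LPS plus PGE against untreated uses the LPS arrays only for the shared estimate of spread, but shares the untreated arrays with the LPS comparison. There Tlr1 did not pass (-0.18 ± 0.07, limma adjusted p = 0.0783; 0.0292 without LPS plus PGE replicate 2 and 0.0373 with a trended variance). Tlr6 lay below its untreated level, with -0.28 ± 0.06 (limma adjusted p = 0.00355). That call ended with quantile normalization (-0.16, limma adjusted p = 0.0655), equal array medians (-0.15, 0.086) and cyclic loess normalization (-0.11, 0.223).

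Tlr1 and Tlr6 are neighbours in the RefSeq gene order, with Klf3, a Kruppel-like repressor gene, on the Tlr1 side and Fam114a1 on the Tlr6 side. The neighbours were looked at after the receptors' values had been seen. Klf3 did not pass after LPS (0.08 ± 0.08, limma adjusted p = 0.594) and fell with LPS plus PGE against LPS (-0.71 ± 0.08, limma adjusted p = 0.000206). Klf3 also fell with LPS plus PGE against untreated (-0.63 ± 0.08, limma adjusted p = 6.84e-05). Fam114a1 did not pass after LPS (0.20 ± 0.08, limma adjusted p = 0.125) and fell less with PGE (-0.25 ± 0.08, limma adjusted p = 0.0373). Tlr1 and Tlr6 are close relatives in sequence, and whether their probe sets share signal was not tested. The other adjacent receptors, Tlr7 and Tlr8, are described below. Trim32, next to Tlr4, fell by 0.34 ± 0.08 after LPS (limma adjusted p = 0.0127) and by 0.77 ± 0.07 after LPS plus PGE (6.88e-06). Between the treatments Trim32 fell by 0.43 ± 0.08 (limma adjusted p = 0.00297). Brinp1, on the other side of Tlr4, passed in no comparison. Atp7a, next to Tlr13, rose after LPS plus PGE (0.18 ± 0.06, limma adjusted p = 0.0394), where Tlr13 did not pass. Sfrp2 next to Tlr2 also rose there (0.34 ± 0.10, limma adjusted p = 0.0249). Tmsb4x next to Tlr8 (-0.16 ± 0.05, limma adjusted p = 0.0373) and Twf2 next to Tlr9 (-0.19 ± 0.07, 0.048) fell there. Between the treatments Susd4 next to Tlr5 rose (0.53 ± 0.12, limma adjusted p = 0.0117). Tmem131l next to Tlr2 fell (-0.17 ± 0.06, limma adjusted p = 0.0498). Of all genes, 31.7% passed after LPS plus PGE and 24.7% between the treatments.

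**Figure D2:**
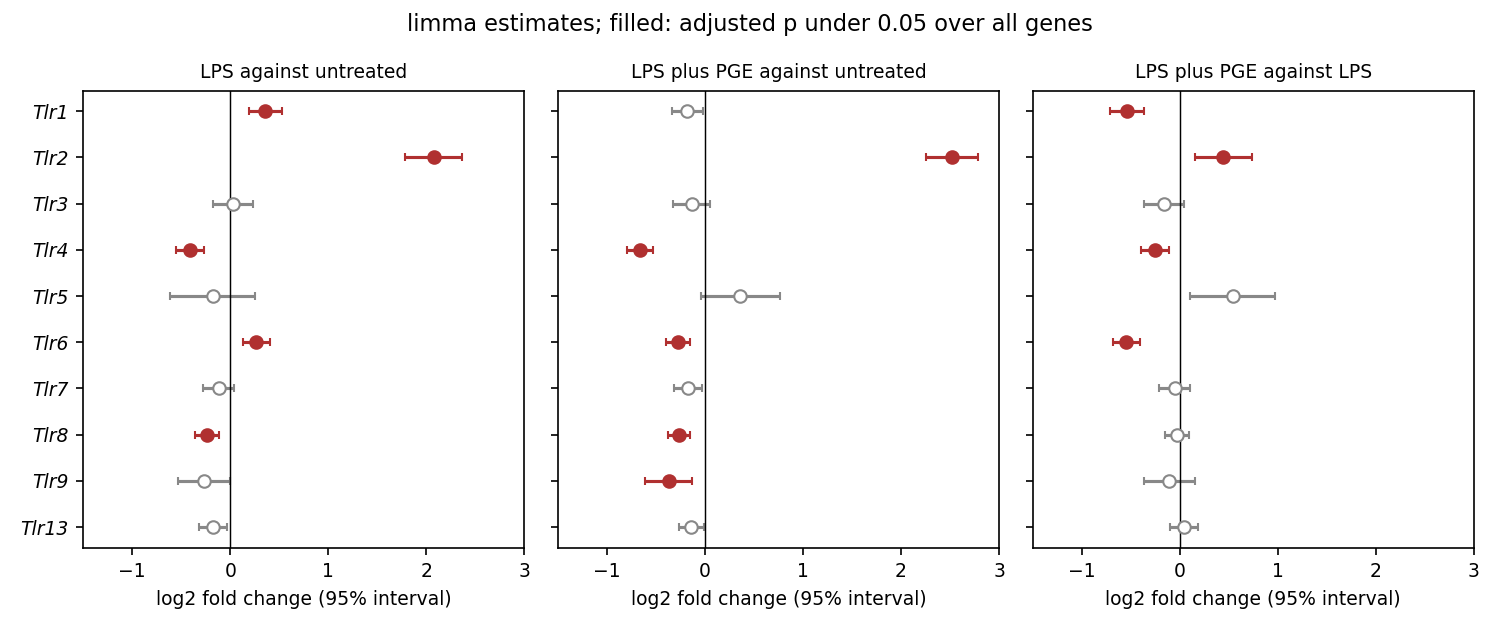
Limma log2 fold changes (horizontal axis) of the 10 receptors in the 3 comparisons, with 95% intervals; filled red points passed at an adjusted p under 0.05 over all genes. Tlr2 leads both comparisons with untreated cells at 2.07 and 2.52, and in the comparison of LPS plus PGE with LPS the lowest points are Tlr1 and Tlr6, both at -0.54.

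Tlr4, the LPS receptor, measured 9.07, 9.06, 9.09 and 9.05 in untreated arrays, a spread of 0.02 (SD, n = 4). LPS arrays gave 8.70, 8.59 and 8.68, and LPS plus PGE arrays 8.34, 8.56, 8.34 and 8.39. Every treated array lies below every untreated one, and the PGE arrays below the LPS arrays. Tlr4 fell by 0.41 ± 0.07 after LPS (1.33-fold, limma adjusted p = 0.00125) and by 0.66 ± 0.06 after LPS plus PGE (1.58-fold, limma adjusted p = 6.28e-06). Both falls passed under all 21 alternatives.

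The lower level of Tlr4 with PGE than with LPS alone was less firm. It was -0.25 ± 0.07 (limma adjusted p = 0.018) and passed in 16 of 21 alternatives. It was lost with quantile normalization (-0.14, limma adjusted p = 0.192), equal array medians (-0.10, 0.3) and cyclic loess normalization (-0.12, 0.261). It was also lost without LPS replicate 1 (limma adjusted p = 0.0529) or LPS replicate 3 (0.0556).

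Tlr5, the flagellin receptor, was dim: its values lay between the 30.1 and 47.1 percentile of genes on their arrays. It measured 5.13, 4.57, 4.81 and 4.87 untreated, 4.92, 4.99 and 4.08 with LPS, and 5.43, 5.01, 5.21 and 5.17 with LPS plus PGE. LPS replicate 3 is the low value that makes the LPS group's SD 0.50 (n = 3). Tlr5 passed in none of the comparisons: -0.18 ± 0.20 after LPS (limma adjusted p = 0.628), 0.36 ± 0.18 after LPS plus PGE (0.152) and 0.54 ± 0.20 between them (0.0667). Without LPS replicate 3 the value after LPS plus PGE passed (limma adjusted p = 0.0363), as did the comparison of both treatments without LPS replicate 2 (0.0382). Tlr5 was the only member below the median level of all genes, and no detection call was used to set it apart from background.

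Among the endosomal receptors no change that passed was larger than 1.29-fold. Tlr8, an RNA sensor, gave 11.78, 11.89, 11.86 and 11.79 untreated, 11.63, 11.56 and 11.58 with LPS, and 11.54, 11.60, 11.59 and 11.51 with LPS plus PGE. All treated arrays lie below the untreated ones, and the treated groups overlap. Tlr8 fell by 0.24 ± 0.06 after LPS (1.18-fold, limma adjusted p = 0.0145) and by 0.27 ± 0.05 after LPS plus PGE (1.20-fold, limma adjusted p = 0.00232). The LPS call ended without LPS replicate 2 (-0.22, limma adjusted p = 0.0545), and the combined call with equal array medians (-0.14, 0.0974). Between the treatments the difference was -0.03 with a 95% interval of -0.15 to 0.09 (limma adjusted p = 0.733).

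Tlr7, the neighbour of Tlr8 on the X chromosome and also a sensor of single-stranded RNA, measured 10.91, 11.06, 11.11 and 11.09 untreated. It measured 11.03, 10.89 and 10.83 with LPS and 10.85, 10.92, 10.92 and 10.79 with LPS plus PGE. The 3 groups overlap. It did not pass after LPS (-0.12 ± 0.07, limma adjusted p = 0.325), nor after LPS plus PGE (-0.17 ± 0.07, limma adjusted p = 0.0689). The latter passed in 4 of 21 alternatives: 0.0325 without untreated replicate 1, 0.0254 with quantile normalization, 0.0167 with a trended variance and 0.0441 with the dimmest genes left out. Whether Tlr7 and Tlr8 differ in response was not tested.

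Tlr9, the sensor of unmethylated CpG DNA, ran at 9.62, 9.69, 9.92 and 9.80 untreated, 9.27, 9.55 and 9.66 with LPS, and 9.10, 9.41, 9.52 and 9.52 with LPS plus PGE. Replicate 1 is the lowest of each group. After LPS alone Tlr9 did not pass (-0.27 ± 0.12, limma adjusted p = 0.187). It fell with LPS plus PGE (-0.37 ± 0.11, limma adjusted p = 0.0254), where its arrays did not overlap with untreated ones. That call ended without untreated replicate 3 (limma adjusted p = 0.071), untreated replicate 4 (0.0598) or LPS plus PGE replicate 1 (0.0684), and with equal array medians (-0.25, 0.12) or cyclic loess (-0.26, 0.12).

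Tlr13, the mouse sensor of bacterial ribosomal RNA, gave 12.06, 12.08, 12.15 and 12.09 untreated, 12.03, 11.92 and 11.80 with LPS, and 12.01, 11.97, 11.97 and 11.88 with LPS plus PGE. No treated array reached the untreated range, yet neither difference passed: -0.18 ± 0.07 (limma adjusted p = 0.0973) and -0.14 ± 0.06 (0.102). The LPS value passed in 3 of 21 alternatives: without LPS replicate 1 (limma adjusted p = 0.0428), with quantile normalization (0.0447) and with a trended variance (0.0128). The LPS plus PGE value passed under the latter 2 settings (limma adjusted p = 0.0499 and 0.0225). Tlr3, the sensor of double-stranded RNA and the member that does not use Myd88, gave 8.19, 7.99, 8.08 and 8.08 untreated, 8.18, 8.05 and 8.10 with LPS, and 7.79, 7.85, 7.94 and 8.21 with LPS plus PGE. Its LPS change was 0.03 with a 95% interval of -0.18 to 0.23 (limma adjusted p = 0.897), and its groups overlap. With LPS plus PGE it was at -0.14 ± 0.09 (limma adjusted p = 0.25), or -0.22 without LPS plus PGE replicate 4 (0.0352).

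Counted over the 10 receptors, LPS plus PGE against untreated gave 5 calls, against 31.7% of all genes. Tlr2 rose (background 13.8%), and Tlr4, Tlr6, Tlr8 and Tlr9 fell (background 17.9%). Arrays did not overlap for 6 receptors, against 35.1% of all genes: 1 lay higher (background 13.7%) and 5 lower (background 21.4%). The median change of the receptors was -0.17. In this comparison genes below the median level of 5.92 had a median change of 0.14 and those above it -0.11, and 9 of the 10 receptors lie above it. What part this shift with level has in the falls of the receptors was not tested, but with cyclic loess normalization 3 receptors passed, with equal array medians 2 and with a trended variance 8. With equal array medians the median of all genes moved from 0.02 to 0.14 here and from 0.00 to 0.15 between the treatments, and calls over all genes went from 43.5% to 76.9% and from 47.9% to 89.1% rises. That centring shifts every gene of a comparison equally, so the order of the receptors is as before.

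Between LPS plus PGE and LPS, 4 of 10 receptors passed, against 24.7% of all genes: Tlr2 rose (background 11.9%), and Tlr1, Tlr4 and Tlr6 fell (background 12.9%). Arrays did not overlap for 5 receptors, against 33.9% of all genes: 2 lay higher (background 15.5%) and 3 lower (background 18.3%). All 4 that passed are cell-surface receptors; whether these differ from the endosomal ones in response was not tested. No endosomal receptor passed, with estimates from -0.16 for Tlr3 to 0.04 for Tlr13; Tlr3 passed without LPS plus PGE replicate 4 (-0.25, limma adjusted p = 0.0375). Without LPS replicate 1 or LPS replicate 3 the count was 2 of 10, with Tlr1 and Tlr6 still passing. Here too, genes below the median level of 5.92 had a median change of 0.14 and those above it -0.11. After LPS these values were -0.014 and -0.015. What part the shift between the treatments has in the falls of receptors and pathway genes was not tested.

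**Figure D3:**
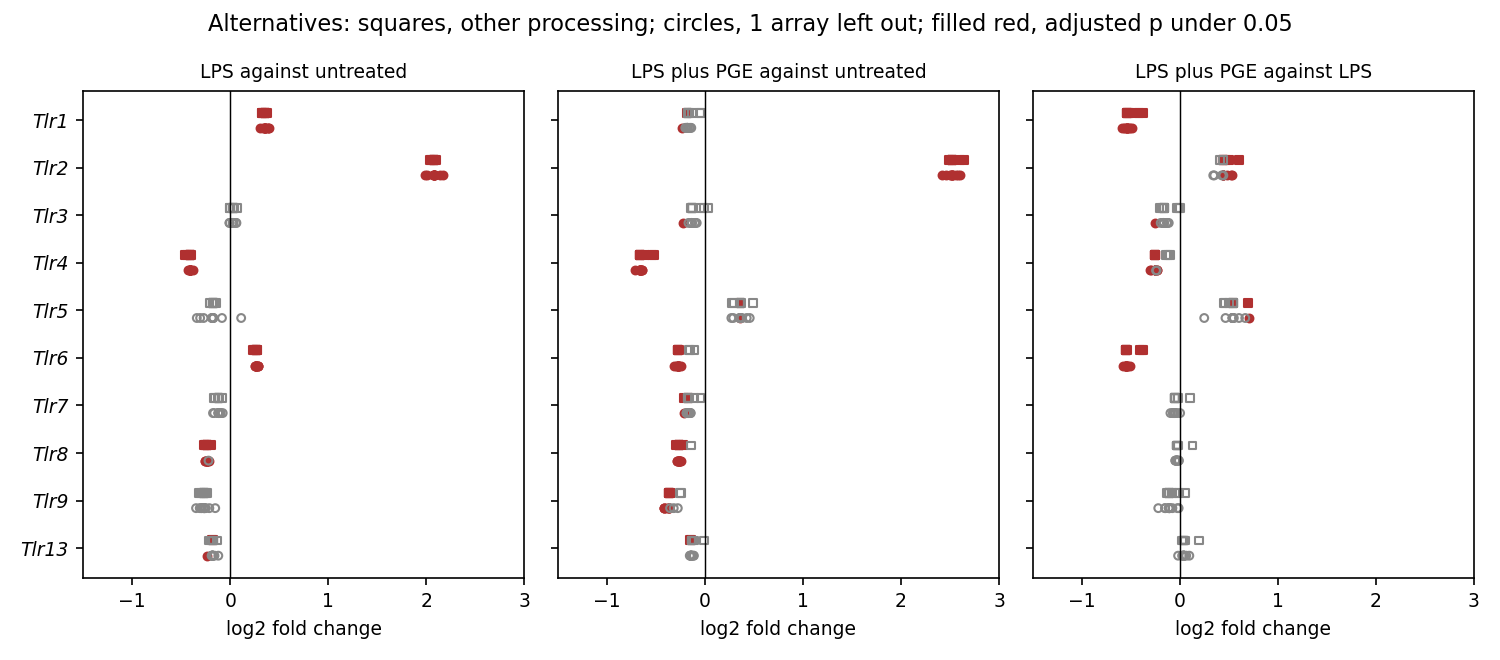
Log2 fold change (horizontal axis) of each receptor under the alternatives; squares are other processing choices, circles are fits with 1 array left out, and filled red marks an adjusted p under 0.05. The Tlr1, Tlr2, Tlr4 and Tlr6 marks are all filled in the left panel, whereas in the right panel those of Tlr2 and Tlr4 are mixed.

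The rest of the pathway was read from a list of 53 genes by role, of which 45 were analysed here. After LPS 11 rose and 2 fell, after LPS plus PGE 5 rose and 8 fell, and between the treatments 1 rose and 10 fell. That is 28.9%, 28.9% and 24.4% of the 45 genes, against 13.2%, 31.7% and 24.7% of all genes, so the shares in both comparisons with PGE lie near or below the background. The list's median changes were 0.01, -0.04 and -0.08, beside -0.01, 0.02 and 0.00 over all genes. The balance turned with equal array medians: 9 rose and 4 fell after LPS plus PGE, and 6 rose and 2 fell between the treatments, where 3 of the 11 calls were shared (Cd14, Tirap and Ticam1). Of those 11 calls, 6 were kept with quantile normalization, 5 with cyclic loess (which added Tlr11) and 5 without LPS replicate 3. There were 7 calls between the treatments without LPS plus PGE replicate 1, 2 or 3.

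Among 6 co-receptors and accessory proteins, Cd14, which hands LPS to the Tlr4 complex, was the only rise as fitted in each comparison. Of all genes, 6.55% rose after LPS, 13.8% after LPS plus PGE and 11.9% between the treatments. The mean of Cd14 was 10.49 ± 0.07 (SD, n = 4) untreated, 12.13 ± 0.08 (SD, n = 3) with LPS and 12.71 ± 0.03 (SD, n = 4) with LPS plus PGE, with no overlap. The changes were 1.64 ± 0.06, 2.22 ± 0.06 and, between the treatments, 0.59 ± 0.06 (limma adjusted p = 0.000109), and all passed under all 21 alternatives. The only fall as fitted was that of Lbp after LPS plus PGE (-0.31 ± 0.09, limma adjusted p = 0.0209, background 17.9%). That call ended with quantile normalization, equal array medians and cyclic loess, and without untreated replicate 2 or 3. Ly86 passed as a rise between the treatments with equal array medians, and as a fall after LPS with a trended variance. With a trended variance Cd180 passed as a fall after LPS plus PGE. Ly96 (MD-2), the LPS-binding partner of Tlr4, did not pass, with -0.27 ± 0.11 after LPS (limma adjusted p = 0.148) and -0.22 ± 0.10 after LPS plus PGE (0.127). Its LPS arrays were spread, with an SD of 0.32 (n = 3) against 0.01 (n = 4) untreated. Without LPS replicate 1 it passed after LPS (-0.45, limma adjusted p = 0.00136), after LPS plus PGE (0.0124) and between the treatments (0.23, 0.0395). It also passed after LPS plus PGE in a fit of the 2 groups alone (limma adjusted p = 0.00698). Of 7 chaperone and trafficking genes, none passed after LPS, 1 fell after LPS plus PGE (17.9% of all genes) and 2 fell between the treatments (12.9%). The fall after LPS plus PGE was that of Slc15a4 (-0.47 ± 0.06, limma adjusted p = 0.00016). Those between the treatments were Slc15a4 (-0.31 ± 0.07, limma adjusted p = 0.00834) and Ap3b1 (-0.19 ± 0.06, 0.0479). With equal array medians neither fall between the treatments passed, and Tmed7 passed as a rise. The Ap3b1 call also ended with quantile and cyclic loess normalization, array weights, a fit of the 2 groups alone and all probe sets. With 1 array left out, it held only without LPS replicate 1. Unc93b1, which carries the endosomal receptors out of the endoplasmic reticulum, measured -0.08 ± 0.06 after LPS and -0.04 ± 0.05 after LPS plus PGE. None of the 4 endosomal proteases analysed, which trim those receptors, passed in any comparison as fitted. Ctss and Lgmn passed as rises between the treatments with equal array medians, and as falls after LPS with a trended variance. Without LPS replicate 1, Ctss passed as a fall after LPS and as a rise between the treatments.

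Of 6 adaptors, 2 rose and 1 fell after LPS (6.55% and 6.69% of all genes), and 3 fell after LPS plus PGE (17.9%). With PGE against LPS alone 3 fell (12.9% of all genes), and Ticam1 had the lowest value of the list there. It measured 8.55 ± 0.09 (SD, n = 4) untreated, 9.27 ± 0.09 (SD, n = 3) with LPS and 8.27 ± 0.11 (SD, n = 4) with LPS plus PGE. It rose by 0.72 ± 0.08 after LPS (limma adjusted p = 4.15e-05) and was 2.00-fold lower with PGE than without (-1.0 ± 0.08, limma adjusted p = 7.3e-06). Tirap, the adaptor that links Tlr2 and Tlr4 to Myd88, stepped down from 8.75 to 8.27 to 7.69. Its falls were -0.48 ± 0.08 after LPS (limma adjusted p = 0.0018), -1.06 ± 0.08 after LPS plus PGE (5.8e-07) and -0.58 ± 0.08 between the treatments (0.000788). These calls of Ticam1 and Tirap passed under all 21 alternatives. Ticam1 was also lower with LPS plus PGE than in untreated cells (-0.28 ± 0.07, limma adjusted p = 0.0123). That call ended with equal array medians and with cyclic loess. Myd88 rose after LPS (0.32 ± 0.06, limma adjusted p = 0.00611), under all 21 alternatives. After LPS plus PGE it passed only with equal array medians, as a rise. Between the treatments Myd88 fell (-0.22 ± 0.06, limma adjusted p = 0.0294). That fall was lost with equal array medians, cyclic loess and the 2 groups alone. It was also lost without LPS replicate 1 or 3 or LPS plus PGE replicate 2 or 3. The inhibitor Tnfaip3 (A20), a ubiquitin-editing enzyme, rose by 4.30 ± 0.08 and 4.33 ± 0.08 against untreated and differed by 0.03 between the treatments (limma adjusted p = 0.789).

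Among 10 kinases and ubiquitin ligases analysed, 5 rose and 1 fell after LPS (6.55% and 6.69% of all genes), and 4 fell with PGE against LPS alone (12.9% of all genes). The rises were 3 without untreated replicate 2, 3 or 4 or LPS replicate 2 or 3, where Tab3 and Tbk1 were lost. With equal array medians none of the 4 falls passed. With quantile normalization, with cyclic loess and without LPS replicate 3 only the fall of Ikbke did. Of 6 inhibitors, 1 rose after LPS (6.55% of all genes), and 1 rose and 1 fell after LPS plus PGE (13.8% and 17.9%). Between the treatments 1 fell (12.9%). Both falls were those of Rnf216 (-0.24 ± 0.06, limma adjusted p = 0.0147, and -0.22 ± 0.07, 0.0403). Neither passed with equal array medians or with cyclic loess. The fall between the treatments also ended with quantile normalization, array weights, a fit of the 2 groups alone and all probe sets. With 1 array left out, it held only without untreated replicate 1 or 4 or LPS replicate 1. Of 4 transcription factors, 2 rose after LPS (6.55% of all genes) and 1 after LPS plus PGE (13.8%). The LPS rise of Irf3 ended without LPS replicate 3 (limma adjusted p = 0.059). The other mouse receptor genes, Tlr11 and Tlr12, stood at 2.99 and 3.0 in untreated cells, below the array lower quartile of 3.80 to 4.05, and passed in no comparison as fitted. Between the treatments Tlr11 passed with cyclic loess and Tlr12 with equal array medians. Against untreated cells Tlr11 also passed, as a fall, after LPS plus PGE with quantile normalization and with cyclic loess.

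**Figure D4:**
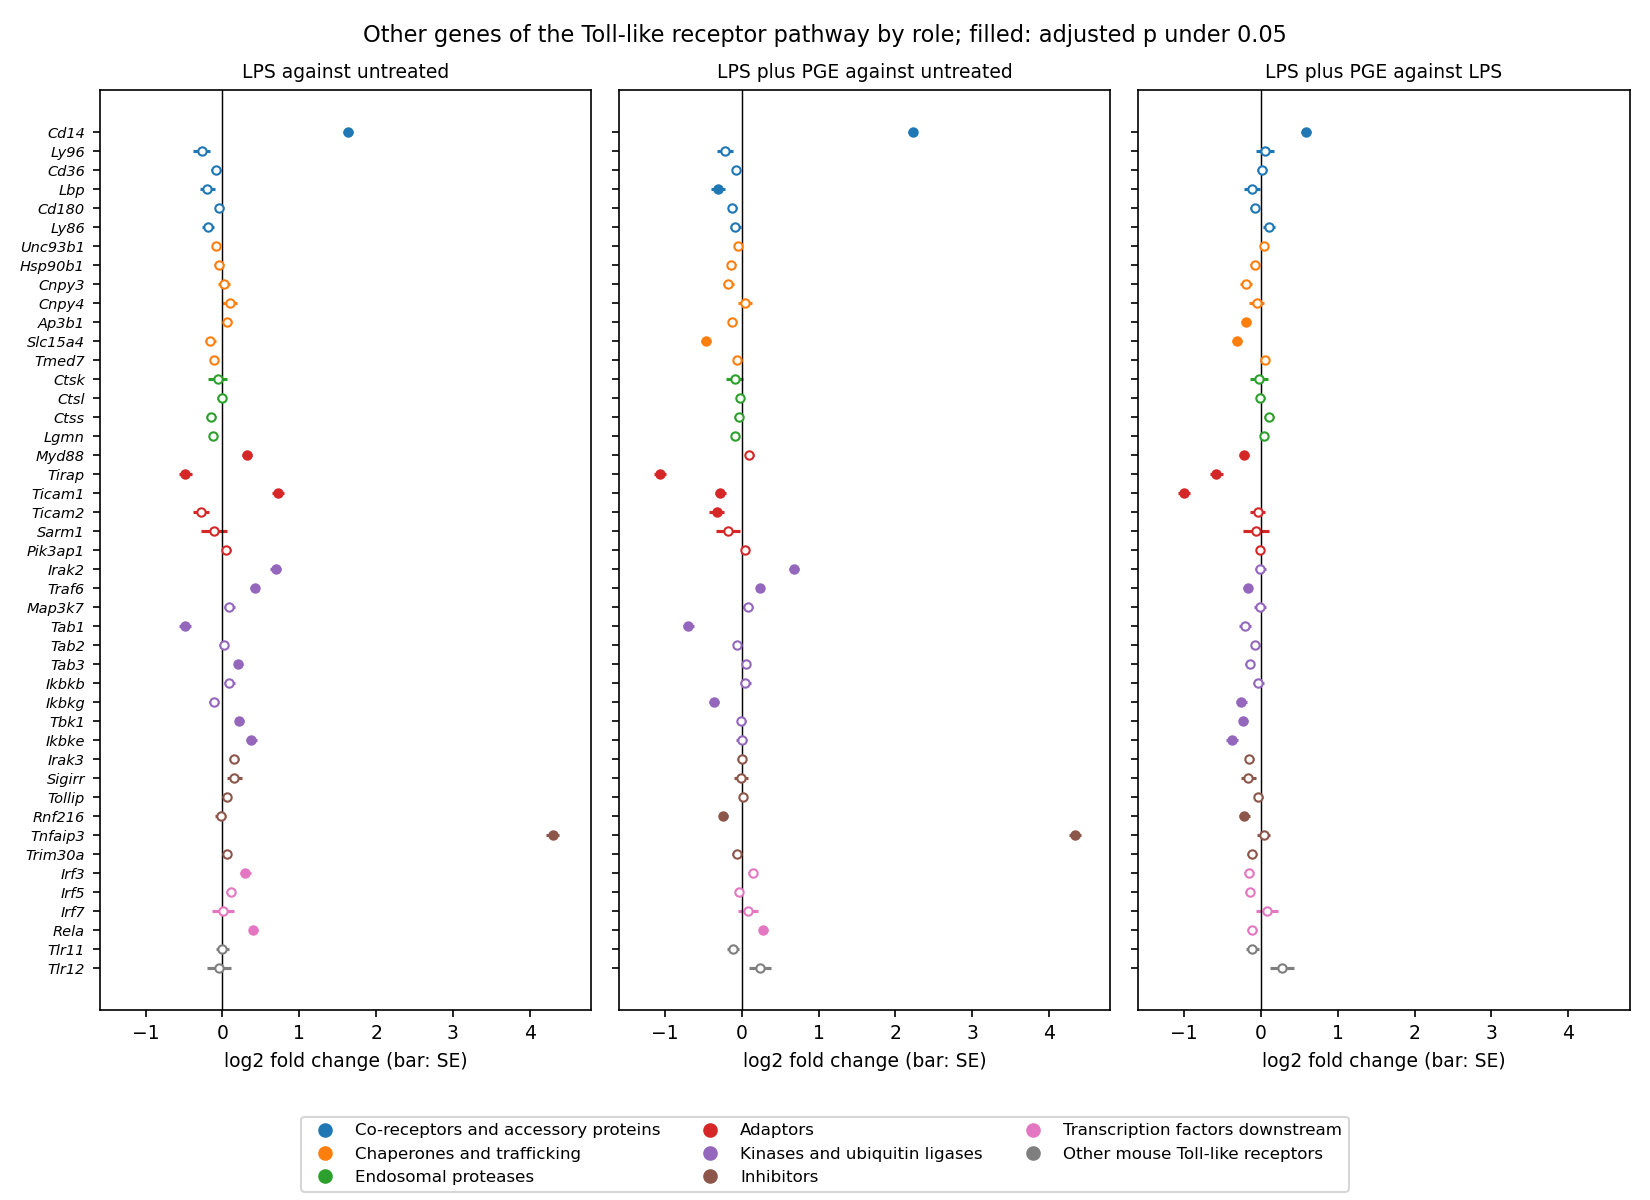
Limma log2 fold changes (horizontal axis, bar: SE) of 45 other genes of the pathway, coloured by role, in the 3 comparisons; filled points passed. Tnfaip3 and Cd14 lie far to the right in both comparisons with untreated cells, and Ticam1 at -1.0 is the lowest point between the treatments.

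For the 6 receptors that passed in at least 1 comparison, the genes of most like pattern were found by the root mean square difference over the 11 arrays after centring each gene, among 17642 named genes. Nearest to Tlr2 were Rab20, Jag1, Zswim4, Junb and Zc3h12a, at 0.161 to 0.184 beside Tlr2's own deviation of 1.15. Rab20 rose by 2.29 after LPS and by 2.54 after LPS plus PGE, and Junb by 2.05 and 2.66. Nearest to Tlr1 were Setd5, Rfx3, Lima1, Il7 and Bmt2 (0.0717 to 0.08), and nearest to Tlr6 were Rara, Ttc1, Setd5, Zfp280c and Naif1 (0.0596 to 0.0635), so Setd5 is on both lists. Nearest to Tlr4 were Plekhf2, Tmem129, Dedd, Tstd2 and Coa4 (0.0542 to 0.0686). Nearest to Tlr8 were Dennd4c, Ube2r2, Gyg, Grsf1 and Man1c1 (0.0369 to 0.0405), and nearest to Tlr9 were Gpx3, Gprc5c, Ro60, Itpripl1 and Pfkfb4 (0.0689 to 0.0973). These distances are descriptions over arrays that share the 3 groups.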

How the data were processed

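Transcripts were measured with Affymetrix mouse whole-transcript gene arrays from 250 ng of total RNA per sample. The authors deposited 1 value per probe set on a log2 scale, a scale inferred from the range of 1.20 to 13.81 and from RMA, which the submitters' processing notes list. Beside it they list Partek, R 2.13.1 and Affymetrix Power Tools with no roles. For the genome build, the sources used here give nothing. Of 35309 probe sets, 21143 had 1 gene symbol, 1870 several and 12296 none; per gene the highest-mean row was kept (18755 genes).

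A group-means model over 11 arrays was fitted with limma 3.58.1 in R 4.3.3 (8 residual and 3.77 prior degrees of freedom), two-sided, for 3 comparisons; figures used matplotlib 3.10.9 in Python 3.11.15. The script was tested on simulated data. The members, pathway and marker lists were chosen with earlier results of these data known. All members are named. Pathway genes are named for the 3 largest non-overlapping changes per comparison. Ly96, Unc93b1, Tlr11, Tlr12, some of the genes whose calls change with a setting and the neighbour genes were added after values were seen. Alternatives were quantile, equal-median and cyclic loess normalization, trended and robust variance, array weights, 2 groups alone, the dimmest tertile left out, mean of probe sets, all probe sets, replicate block and each array left out. RefSeq promoters matched 8 of 10 members by symbol. The number of arrays limits the precision.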

Additional observations from a re-analysis of the deposited data

Results flagged for a closer look

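Chance marks about 1 in 20 groups of 4 arrays under Dixon's test. The test was applied to such groups for the 10 receptors and the pathway genes named for the largest changes, 28 gene and group pairs. It marked 1: Tnfaip3 in LPS plus PGE replicate 3, at 12.18, against 12.12 to 12.13 in the other 3 arrays of its group. No receptor was marked.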

How the results depend on the processing

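Of the 21 alternatives, all left the count of receptors passing after LPS within 1.5 times of 5. After LPS plus PGE the count of 5 became 2 with equal array medians, 3 with cyclic loess and 8 with a trended variance. Between the treatments the 4 calls ran from 2 to 5 with 1 array left out. Pathway calls between the treatments (11) became 6 with quantile normalization, 6 with cyclic loess and 7 in a fit of the 2 groups alone, and ran from 5 to 11 with 1 array left out. All genes passing went from 5946 to 3897 with cyclic loess after LPS plus PGE. Between the treatments they went from 4641 to 1899 with quantile normalization, to 2173 with cyclic loess, and from 2945 to 4455 with 1 array left out. The cause was not tested.

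Estimates that changed sign did not pass before or after. After LPS, Tlr3 (0.03) became -0.0086 with quantile normalization, -0.0063 with equal array medians, -0.0055 without untreated replicate 2 and -0.0090 without LPS replicate 1, up to 0.063 at the highest with 1 array left out, and Tlr5 (-0.18) became 0.11 without LPS replicate 3 (lowest -0.34). After LPS plus PGE, Tlr3 (-0.14) became 0.031 with cyclic loess. Between the treatments, equal array medians gave 0.11 for Tlr7, 0.13 for Tlr8 and 0.054 for Tlr9, cyclic loess gave 0.00063 for Tlr3, Tlr7 became 0.0049 without LPS replicate 1 (lowest -0.094), and Tlr13 (0.04) became -0.016 without LPS replicate 3 (highest 0.099). With equal array medians and with a trended variance Tlr5 passed between the treatments (limma adjusted p = 0.0187 and 0.04).

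The labels do not say that replicate numbers pair arrays. Deviations of same-numbered arrays correlated at -0.02 to 0.21 (median 0.127) over 10 pairs, with 7 over 0.1. Of 30 pairs of different number, 0 were over 0.1 (median -0.038). Counting each same-numbered pair from both of its arrays, 18 of 20 best matches were with the own number. That is a hint of pairing from the data; since not every pair was over 0.1, the fit without the block was kept. With replicate number as a block, the receptors passing were 5, 5 and 4, and all genes passing 2454, 6124 and 4698; no receptor's call changed. Pathway genes passing were 11, 13 and 10, with Tab3 and Tbk1 lost after LPS (3 kinases and ligases rising) and Traf6 lost between the treatments (3 falling).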
